A study of Homo sapiens with 6 samples.

Results

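Long non-coding RNAs (lncRNAs) are transcripts with no annotated protein product, and many of them are annotated on the strand opposite a protein-coding gene. Where exons of such an annotation and of the gene overlap, they share sequence in reverse complement. There, only a strand-aware count can give a read to one or the other. Unnamed lncRNA features, known only by an Ensembl identifier, were examined in RNA-seq libraries of CAL27, an established cell line from a human oral squamous cell carcinoma. A feature was selected on its summed counts: it was taken when its deposited row was typed lncRNA, had no gene symbol and held at least 60 raw counts summed over 6 libraries, with 2 features left out for their folds in an earlier analysis. This gave 1577 features of 4075 unnamed lncRNA rows, 6003 lncRNA rows and 23384 rows in all. Of these, 1437 (91.1%) overlapped a protein-coding row on the other strand by at least 1 base, from start to end, and 140 did not.

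The 3 control libraries are labelled genotype WT and vector transfection. The 3 others are labelled genotype TNFAIP2 overexpression and were transfected with a plasmid carrying TNFAIP2, a gene induced by tumour necrosis factor. Both groups are CAL27 cells, and the labels call the plasmid step a transfection where the design text says infection. Whether libraries were separate cultures or the line a single clone was not stated in the labels. P-values therefore measure the spread between libraries, which may be technical. By its title, the series asks whether TNFAIP2 acts on NF-κB signalling in lymph node spread.

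Libraries held 3092261 to 3527161 counts. TNFAIP2 under its own name had 112 to 194 counts in controls and 142 to 194 in the libraries labelled TNFAIP2 overexpression, so that row did not set the groups apart, and directions below refer to the labels. All 12 squamous epithelial markers had a row, with summed counts of 24203 to 26162 in controls and 24678 to 25105 in the overexpression-labelled libraries. KRT8 made up most of each sum, and the other 11 markers summed to 3888, 4046 and 5603 counts in controls against 6602, 5023 and 6247. Of 15 fibroblast, endothelial and leukocyte markers 8 had a row, with sums of 25 to 48 and 29 to 63 counts. In bulk libraries fewer cells of a type and less RNA per cell cannot be told apart. The kit was stranded, but the strand setting used in counting is not given in the sources used here, so which strand the reads of a feature came from was not tested.

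The geometry of these features can be read from their sequence. The following stretches of 100 bases are from GENCODE 29 transcripts on GRCh38, 5′ to 3′. Capitals mark bases that lie in, or opposite, the coding part of an exon of a protein-coding gene. The first 4 lines pair a feature with its gene. GAPDH, a glycolytic enzyme, and TUBB, a beta-tubulin of microtubules, were chosen because their opposite features were among the 3 most counted. The positions are chr12:6537886-6537985 (feature on the minus strand, GAPDH on the plus strand) and chr6:30723778-30723877 (feature minus, TUBB plus).
ENSG00000269968: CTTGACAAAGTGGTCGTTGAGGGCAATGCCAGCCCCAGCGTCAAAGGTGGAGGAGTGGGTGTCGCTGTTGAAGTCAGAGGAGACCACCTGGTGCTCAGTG
GAPDH: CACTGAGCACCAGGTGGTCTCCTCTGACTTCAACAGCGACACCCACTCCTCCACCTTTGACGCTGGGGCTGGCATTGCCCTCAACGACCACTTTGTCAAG
ENSG00000272540: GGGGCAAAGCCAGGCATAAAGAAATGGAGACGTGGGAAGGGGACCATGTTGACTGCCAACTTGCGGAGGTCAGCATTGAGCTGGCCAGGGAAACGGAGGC
TUBB: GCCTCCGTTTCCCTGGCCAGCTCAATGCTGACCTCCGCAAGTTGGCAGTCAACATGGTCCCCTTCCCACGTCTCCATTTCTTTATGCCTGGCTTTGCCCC

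In both pairs the feature's letters matched 100% of the gene's letters after reverse complement. The next stretch crosses an edge of the coding sequence of TPT1 (a translationally controlled tumour protein). Of its bases, 50 lie opposite the coding part of an exon and 50 beyond that part. All 588 exonic bases of this feature lie opposite annotated TPT1 exons, so lower case here does not mean outside the gene's exons. It lies at chr13:45340135-45340234 on the plus strand and shows that one feature can hold both kinds of base.
ENSG00000273149: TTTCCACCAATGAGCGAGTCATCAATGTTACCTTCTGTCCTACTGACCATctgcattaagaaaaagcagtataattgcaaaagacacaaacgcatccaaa

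The last 3 show a feature opposite GINS3, a subunit of the replicative helicase complex, which is described below for its fold change, and the 2 most counted features with no protein-coding row opposite. Their positions are chr16:58392688-58392787 (minus), chr19:23874602-23874701 (minus) and chr14:70291477-70291576 (plus).
ENSG00000276131: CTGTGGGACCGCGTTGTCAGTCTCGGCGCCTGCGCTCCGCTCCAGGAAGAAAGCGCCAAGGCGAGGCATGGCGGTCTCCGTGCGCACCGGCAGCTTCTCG
ENSG00000267924: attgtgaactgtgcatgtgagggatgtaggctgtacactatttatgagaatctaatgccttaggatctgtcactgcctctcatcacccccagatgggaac
ENSG00000259033: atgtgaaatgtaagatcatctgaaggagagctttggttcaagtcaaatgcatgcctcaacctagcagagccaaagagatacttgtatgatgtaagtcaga

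The features opposite a gene held many more counts than those without. Their median total over the 6 libraries was 759 counts, against 124 for the 140 with no protein-coding row opposite. The highest total was 371061 counts, 95 features were above 10000 and 236 were under 120. The 12 most counted held 32.2% of all counts given to the 1577 features. Because the rule uses the total, these levels are a description. Among all unnamed lncRNA rows other than the 2 left out, 1437 of 2622 opposite a protein-coding row (54.8%) reached 60 counts, and 140 of 1451 with none opposite (9.65%) did. Their median totals were 98.5 and 5 counts. At the threshold, 6 features had 60 counts, among them ENSG00000255487 opposite NSD3, ENSG00000265750 opposite CABYR and ENSG00000273314 opposite CUL1. Another 9 rows had 59 and were not taken, among them ENSG00000197210, ENSG00000234869 and ENSG00000235426 opposite ZCCHC24.

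Most of the features lay inside the gene on the other strand. By start and end, 836 of 1437 were inside the opposite gene (median total 865 counts), 312 reached over its 3′ end (791), 255 over its 5′ end (509) and 34 spanned it (730.5). The 1437 features faced 1320 different genes, since 95 genes had 2 of them and 11 had 3, and the 223 features that share a gene are not independent of each other. Several opposite genes were overlapped by 148 features. On their own strand, 42 features overlapped another of the features, and 92 overlapped a protein-coding row, so reads may be split between such rows. The plus strand held 762 of the 1577.

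Exon models in GENCODE 29 were found for 1438 features, of which 1216 are typed antisense and 149 lincRNA. In 1296 of the 1438, start and end were the same as in the deposited row. In the others the counted row and the exon model differ in span, so their levels per length are less certain. Counts per exonic kilobase (kb, a level per length summed over the 6 libraries) followed the share of exonic bases lying opposite exons of a protein-coding gene. In 188 features with no exonic base opposite, the median level was 154 counts per exonic kb. It was 441 in 444 features with up to 25% of bases opposite, 1080 in 287 with up to 50%, 1366 in 173 with up to 75%, 1724 in 125 with less than 100%, and 3813 in 221 that lay wholly opposite exons. Spearman's rho across these features was 0.50 (n = 1438), a description, since features share libraries and some share a gene. Counted per opposite exonic kb instead, the medians were 3733, 2893, 2270, 1829 and 3813 for the 5 classes with overlap. They fell over the classes under 100% and were highest in the 100% class. This level was taken only with at least 50 opposite bases, in 383 of 444 features of the first class. It divides all counts of a feature by its opposite bases alone, which raises it where few bases are opposite. Of all unnamed lncRNA rows in the 0% class, 10.5% reached 60 counts, against 62.1% in the next class and 79.8% in the 100% class.

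**Figure D1:**
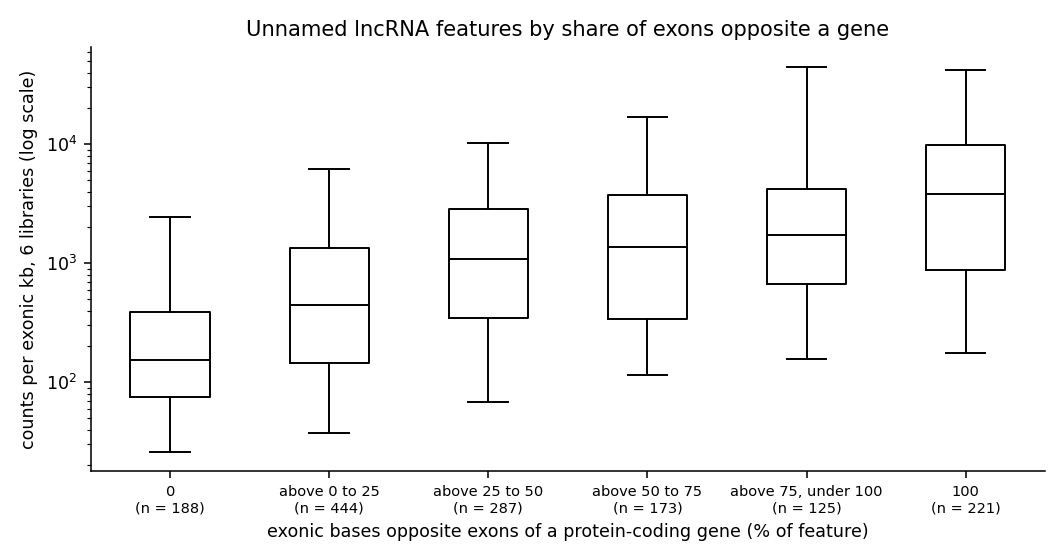
Counts per exonic kilobase summed over 6 libraries (log axis) against the percentage of a feature's exonic bases opposite exons of a protein-coding gene; boxes give the quartiles and median, whiskers the 5th and 95th percentiles. The median rises from 154 in the class with no base opposite to 3813 in the class wholly opposite exons.

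The opposite features usually held more counts than the genes themselves. Over the 6 libraries the feature's total was above the gene's total in 1148 of 1437 pairs (79.9%), taking for each feature the gene with the largest overlap, and in 655 of the 836 features inside a gene. Exon overlap pointed to the same gene in 1171 of 1238 features and to another in 67. Of 1170 pairs with at least 50 overlapping exonic bases, the feature was denser than the gene (counts per exonic kb) in 1116, and the median ratio of these levels was 36.2. Choosing features by their counts favours this direction, so no test is given.

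The search for the hexamer AATAAA, the best known signal for cleavage of a transcript before its poly(A) tail, gave no excess at the features' own 3′ ends. It was present in the last 50 bases of the longest transcript in 27.8% of 1315 features opposite a gene and 28.5% of 123 with none, against 35.4% of 5480 lncRNA rows with a transcript in the annotation and 37.7% of 3309 with fewer than 60 counts. Read on the other strand the same letters are TTTATT. They were in the first 50 bases of 8.59% of the opposite features, 4.07% of those with no gene opposite, 4.03% of all lncRNA rows and 2.72% of those with fewer than 60 counts. A match is a description of letters and not a site.

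Genes of the cytoskeleton, glycolysis and translation stood opposite the most counted features. Counts are given in the order of the replicate numbers, controls before overexpression-labelled libraries. ENSG00000258017 had 59203, 70728 and 57113 counts in controls against 60156, 62892 and 60969. In raw counts the groups overlapped, with the extremes both in controls. Scaled to library size the groups still overlapped, with the highest level in control replicate 2 (22635 CPM). The lowest was then in overexpression-labelled replicate 1 (15597 CPM), below the 16704 CPM of control replicate 3. By span, TUBA1A is the gene on the other strand with the largest overlap, though this is only 6.26% of the feature, while 80.2% of its exonic bases lie opposite exons of TUBA1B. Both encode alpha-tubulin, the partner of beta-tubulin in microtubules. TUBA1B itself had 478, 862 and 1526 counts in controls and 1945, 1053 and 1550 in the other libraries, and TUBA1A had at most 19 counts in any library.

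The feature inside GAPDH, ENSG00000269968, whose sequence is shown above, had 56542, 65846 and 51729 counts in controls and 54881, 58157 and 56154 in overexpression-labelled libraries. GAPDH under its own name had 2389, 3385 and 5183 counts in controls and 6296, 4491 and 5774 in the others. Control replicate 1 was the lowest for the gene and not for the feature. ENSG00000272540 inside TUBB had 37316, 37635 and 29605 counts in controls and 30702, 34245 and 31737 in the others, while TUBB had 830, 1319 and 2094 against 2426, 1643 and 2310. In raw counts control replicate 3 was the lowest for this feature and the highest of the controls for TUBB. Scaled to library size, the feature's 8659 CPM in that library lay above overexpression-labelled replicates 1 and 3 (7960 and 8379 CPM).

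The translation list (ribosomal proteins and factors) had 10 features opposite its genes. Inside TPT1, ENSG00000273149 had 26379, 32237 and 27485 counts in controls and 26940, 29729 and 29415 in the overexpression-labelled libraries. TPT1 had 609, 1105 and 2266 counts against 2471, 1408 and 2060, so that gene and feature did not share an order of libraries. Features inside RPL23A (ENSG00000264577), RPL30 (ENSG00000245970) and RPL10 (ENSG00000280195), proteins of the large ribosomal subunit, had 14943 to 19736, 9386 to 14213 and 9748 to 11749 counts per library. In all 3, the highest library was control replicate 2. RPL23A and RPL30 are hosts of small nucleolar RNAs, and the exons of their features also lay opposite SNORD4A and SNORA72.

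The remaining 5 of the 12 most counted faced genes of several kinds. ENSG00000258232 inside TUBA1C (another alpha-tubulin) had 19336 to 24441 counts per library, ENSG00000265401 inside UBB (ubiquitin) 19233 to 23181, and ENSG00000286037 inside SPINT2 (a serine protease inhibitor) 13165 to 17603. ENSG00000271980, over the 3′ end of CCT5 (a chaperonin subunit), had 9548 to 13878 and ENSG00000262831 inside P4HB (a protein disulfide isomerase) 9773 to 12955. For these 5 features too, the highest count was in control replicate 2. Their genes had 268 to 1325 counts per library under their own names.

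**Figure D2:**
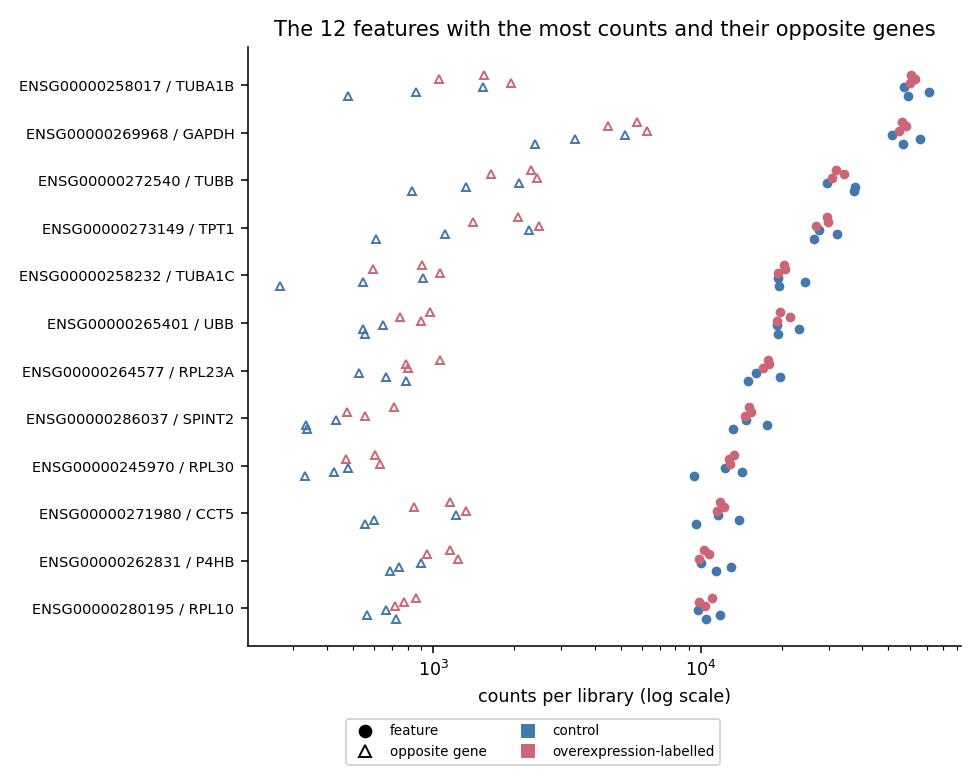
Counts per library (log axis) of the 12 most counted features (filled circles) and the opposite gene (open triangles; the gene with the most exonic overlap, or the largest span overlap for SPINT2), controls in blue and overexpression-labelled libraries in red. The features lie between 9386 and 70728 counts and every gene lies below its feature.

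Cell cycle genes had 4 features opposite them, of which MCM2, PLK1 and CDK2 had the most counted. MCM2 is part of the replicative helicase, PLK1 is a mitotic kinase and CDK2 is a kinase of S-phase entry. ENSG00000285600 over the 3′ end of MCM2 had 5366, 6125 and 4734 counts in controls and 4820, 5455 and 5012 in the overexpression-labelled libraries. The feature inside PLK1, ENSG00000261266, had 1920, 1791 and 1405 against 1359, 1586 and 1492. ENSG00000258554 inside CDK2 had 886, 1102 and 949 against 963, 1000 and 1070, and CDK2 itself had 11, 53 and 118 against 109, 61 and 79. In each of these 3 features the groups' counts overlapped.

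Features opposite genes of RNA processing numbered 5. ENSG00000235298 inside HNRNPK, an RNA-binding protein, had 4642 to 5716 counts per library. The feature inside U2AF2, a subunit of the splicing factor that reads the polypyrimidine tract, was less counted than its gene in most libraries. This feature, ENSG00000267523, had 238, 507 and 350 counts in controls and 458, 450 and 403 in the others, below U2AF2's own 636, 503 and 629 and 692, 682 and 854 in all libraries but control replicate 2.

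Squamous and adhesion genes were also faced by such features. ENSG00000260798 inside CDH1, which encodes E-cadherin, had 1310, 1463 and 1012 counts in controls and 1282, 1368 and 1242 in the overexpression-labelled libraries. ENSG00000260577 inside CDH3, encoding P-cadherin, had 1050, 948 and 768 against 887, 914 and 986. The feature inside AXL, a receptor tyrosine kinase, ENSG00000269652, had 846, 600 and 384 against 565, 669 and 660, with both extremes in controls. Integrin alpha 6, encoded by ITGA6, had 2 features on its other strand, and one of them (ENSG00000225205, 828 to 1054 counts per library) had 497 of 2447 exonic bases opposite coding-gene exons, 445 of them opposite PDK1. The other, ENSG00000226963, had 311 to 375.

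Of the NF-κB and TNF response list, 4 features were found. ENSG00000266978 had 3213, 2879 and 2283 counts in controls and 2587, 2777 and 2627 in the overexpression-labelled libraries. It reaches over the 5′ end of ICAM1, an adhesion molecule for leukocytes, but 560 of its 918 exonic bases lie opposite exons of MRPL4, a mitochondrial ribosomal protein. Few counts were given to ENSG00000288528 over the 5′ end of BIRC3, an inhibitor of apoptosis (12, 33 and 14 against 26, 53 and 30), or to ENSG00000272277 inside RIPK1, a kinase of the TNF receptor complex (23, 33 and 24 against 30, 24 and 7). The groups overlapped in all 3.

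Other role lists gave the following features. In stress and redox genes, ENSG00000267458 inside CALR, a calcium-binding chaperone, had 5550 to 7398 counts per library, ENSG00000261602 inside NQO1, a quinone reductase, 791 to 1009, and ENSG00000249379 inside GCLC, an enzyme of glutathione synthesis, 491 to 646. Cholesterol synthesis was represented by ENSG00000261604 inside HMGCS1 (860 to 1477). Early response genes had ENSG00000267598 inside IER2 (2333 to 3282), ENSG00000274021 over the 5′ end of DUSP6, a phosphatase of MAP kinases (549 to 834), and ENSG00000287387 over the 3′ end of ZFP36L2, an mRNA decay factor (442 to 806). Glycolysis and hypoxia added ENSG00000274904 inside ALDOA (741 to 1076) and ENSG00000272114 inside VEGFA, a growth factor of vessels (702 to 1002). The interferon list had only ENSG00000287543 inside PML, a nuclear body protein (348 to 526).

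The 140 features with no protein-coding row opposite were less counted, and some still lay opposite other transcripts. The most counted was ENSG00000267924, with 1311, 1639 and 1272 counts in controls and 1277, 1258 and 1297 in the overexpression-labelled libraries. Only 21 of its 2291 exonic bases lie opposite RPSAP58, a ribosomal protein pseudogene on the other strand. ENSG00000259033 had 1054, 1322 and 1120 against 1068, 1307 and 1280, with no exon of any kind opposite in the annotation used. For ENSG00000272933, next with 862, 933 and 789 against 754, 812 and 994, all exonic bases lie opposite exons of TRIM8 in GENCODE 29, although the start and end of the deposited TRIM8 row stop 339 bases away. Of 123 with exon models, 12 had such a coding exon opposite and 42 had at least 50 bases opposite exons of a non-coding gene, for example RAB30-AS1 for ENSG00000255503 and EMC3-AS1 for ENSG00000206567. The median gap to the nearest opposite protein-coding row was 42728 bases, and it was under 5000 in 39.

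The share of each library's counts held by the features did not separate the groups. Controls held 30.3, 29.9 and 26.3% there, against 25.04, 27.7 and 25.8% for overexpression-labelled libraries, with 95% Wilson intervals no wider than 0.102 percentage points that cover counting error only. Controls 1 and 2 were above all others, and control 3 lay within the range of the overexpression-labelled libraries. On average the share was 28.9 ± 2.21% in controls and 26.2 ± 1.37% in the others (SD, n = 3), which differ by -2.68 percentage points (exact two-sided permutation test, p = 0.2, the smallest possible being 0.1). For features with no protein-coding row opposite the shares were 0.291 ± 0.0150% and 0.278 ± 0.0126% (SD, n = 3, exact permutation p = 0.4).

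Reads of a pair were divided differently from library to library. The median over 1437 pairs of the log2 ratio of the gene's count to the feature's count, with 0.5 added to both, was -2.74, -2.69 and -1.96 in controls and -1.69, -2.29 and -1.90 in the overexpression-labelled libraries. Control 3 again lay among the overexpression-labelled libraries, and controls 1 and 2 were lowest. The group means were -2.47 ± 0.44 and -1.96 ± 0.30 (SD, n = 3), a difference of 0.51 (exact two-sided permutation test, p = 0.2). As counts, the median gene held 0.150, 0.154 and 0.257 of its feature's count in controls and 0.310, 0.205 and 0.267 in the others.

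**Figure D3:**
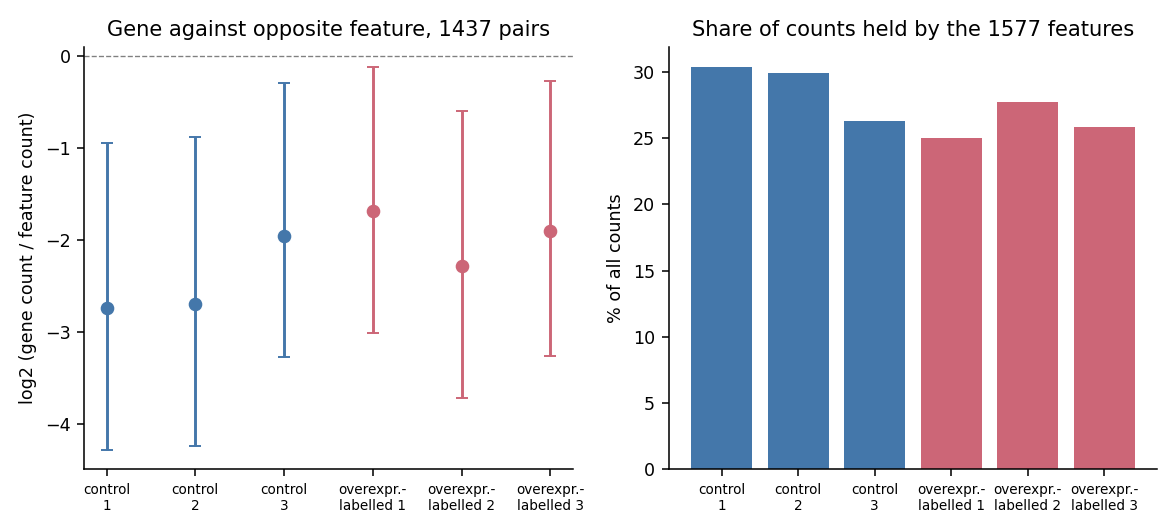
Left, median (point) and quartiles (bars) over 1437 pairs of the log2 ratio of gene count to opposite feature count in each library; right, percentage of each library's counts held by the 1577 features. Control replicates 1 and 2 have the lowest ratios (-2.74 and -2.69) and the highest shares (30.3 and 29.9%).

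No feature passed the test between the groups. In edgeR's quasi-likelihood fit over all rows, 1559 of the 1577 features passed the filter on low counts and 0 had an adjusted p under 0.05, as for 0 of 11851 rows tested (0.0%), with a lowest adjusted p of 0.83. DESeq2 called 0 of the features and 3 of all rows (0.0253%), and limma-voom 0 of the features and 1 of all rows (0.00844%). At an unadjusted p under 0.05, 163 features were lower in the overexpression-labelled libraries (10.5%, against 3.07% of all rows) and 3 were higher (0.192%, against 1.82%). The count of lower features was 75, 36 and 541 without control replicate 1, 2 or 3, and 42 and 45 without overexpression-labelled replicate 1 or 3. With library totals in place of TMM, 48 were lower and 8 higher. Levels in CPM, which are counts scaled to library size by the TMM method, of the groups did not overlap in 171 that were lower (10.97%, against 4.93% of all rows) and 14 that were higher (0.898%, against 5.54%).

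The fold changes had mostly 1 sign. Of 1559 features, 1321 (84.7%) had a negative log2 fold change, against 48.2% of all rows tested. The median was -0.29 for the 1427 tested features opposite a gene and -0.25 for the 132 with none, beside 0.02 for all rows and 0.13 for protein-coding rows. Scaled by library totals in place of TMM, the median of all rows moved to 0.18 and that of the features to -0.12, with 70.5% negative, so the features' median minus that of all rows was -0.31 with TMM and -0.30 with library totals. Scaling to protein-coding rows gave -0.42 for the features, 91.3% of them negative, and -0.09 for all rows. Among features with no exonic base opposite a gene 70.2% were negative (median -0.21), and among those wholly opposite exons 93.6% were (median -0.33). These classes also differed in depth, with median totals of 131.5 and 2008 counts, and signs are less certain at low counts. The part of depth in this difference was not tested.

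lncRNA rows that carry a symbol had like values. Of 497 tested antisense-named rows with at least 60 counts 83.5% had a negative log2 fold change (median -0.28), and of 723 with any symbol 79.8% did (median -0.26). In a list of well-known lncRNAs such as MALAT1 and GAS5, 4 of 19 tested were negative and the median was 0.35. In the 1161 pairs where both rows were tested, the feature was negative and its gene positive in 660, both were negative in 358, both positive in 89, and the feature was positive with a negative gene in 54. The medians in these pairs were -0.29 for features and 0.14 for genes.

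**Figure D4:**
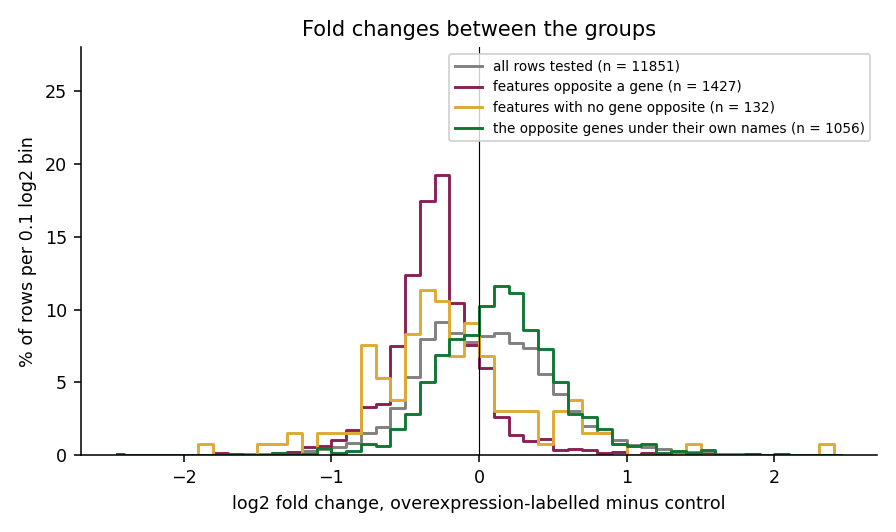
Percentage of rows in each bin of log2 fold change (overexpression-labelled minus control, edgeR) for all rows tested, features opposite a protein-coding gene, features with none opposite, and the opposite genes under their own names. The median is -0.29 for the opposite features, -0.25 for those with none opposite and 0.02 for all rows.

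By the role of the opposite gene, 0 features of any list were called. A negative log2 fold change was found in 6 of 6 features facing cytoskeletal genes, 8 of 10 for translation, 4 of 5 for glycolysis and hypoxia, 7 of 8 for adhesion, 2 of 2 for squamous genes, 4 of 4 each for cell cycle, stress and growth factor genes, 6 of 7 for lipid synthesis, 3 of 5 for RNA processing, 2 of 4 for NF-κB and 1 of 1 for interferon. Most of these shares are near the 84.7% of all the features, and they say nothing particular about a pathway.

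Among the features opposite a gene, the lowest unadjusted p belonged to one inside KLK10, a kallikrein-related protease. This feature, ENSG00000268739, had 35, 29 and 36 counts in controls and 14, 8 and 13 in the overexpression-labelled libraries, so the groups did not overlap. Its level was 10.8 ± 1.66 CPM and 3.12 ± 0.711 CPM (SD, n = 3), and the log2 fold change was -1.77 with an SE of 0.52 (adjusted p = 0.83 in edgeR). KLK10 had 8 counts in control replicate 3 and 0 in the other 5 libraries. ENSG00000276131, inside GINS3 and printed above, had 432, 488 and 372 counts in controls against 255, 329 and 333, also without overlap (140 ± 27.1 and 83.0 ± 15.1 CPM, SD, n = 3). On the log2 scale this was -0.75 with an SE of 0.23 (adjusted p = 0.83 in edgeR).

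Features inside SPATS2L, ERO1A (an oxidase of the endoplasmic reticulum) and MLLT6 followed. ENSG00000287299 inside SPATS2L had 3026, 2679 and 2094 counts in controls and 1892, 2058 and 1951 in the others, with a log2 fold change of -0.68 (SE 0.21). ENSG00000258757 inside ERO1A had 1822, 2136 and 1816 against 1600, 1561 and 1354, with a log2 fold change of -0.61 (SE 0.19). ENSG00000275665 inside MLLT6 had 514, 445 and 348 against 304, 305 and 340, with a log2 fold change of -0.74 (SE 0.23). The edgeR adjusted p was 0.83 in each, and the groups did not overlap in any of them. Control replicate 3 was the lowest control in CPM for all 3.

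Of the features with no gene opposite, ENSG00000274173 had the lowest unadjusted p and was the one of these 10 with more counts in the overexpression-labelled libraries. It had 0, 1 and 10 counts in controls against 25, 13 and 30, or 1.08 ± 1.60 and 6.05 ± 2.11 CPM (SD, n = 3), and the log2 fold change was 2.38 with an SE of 0.88 (adjusted p = 0.83 in edgeR). The other 4 were lower. ENSG00000228549 had 32, 25 and 9 counts in controls and 13, 5 and 5 in the others, and its groups overlapped in CPM through control replicate 3. ENSG00000258534 had 23, 40 and 21 against 18, 11 and 8, ENSG00000233330 had 34, 35 and 20 against 23, 11 and 7 (also overlapping in CPM), and ENSG00000239415 had 81, 58 and 61 against 52, 46 and 32. Their log2 fold changes were -1.82 (SE 0.70), -1.44 (SE 0.56), -1.40 (SE 0.57) and -0.89 (SE 0.37), each with an edgeR adjusted p of 0.83.

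One control library decided the count of calls. Without control replicate 3, edgeR called 199 of 1570 tested features, 196 of them lower in the overexpression-labelled libraries, against 921 of 12443 rows in all (7.4%), of which 407 were lower (3.27%). The remaining controls, 1 and 2, are those with the lowest gene-to-feature ratios. The called features included those inside SPATS2L (edgeR adjusted p = 0.00044), ERO1A (0.0047), MLLT6 (0.0024), GINS3 (0.0036) and KLK10 (0.046), together with ENSG00000274173 (0.0052) and ENSG00000228549 (0.026). Leaving out any other library gave 0 calls among the features. Protein-coding rows held 50.3, 50.2 and 56.0% of the counts in controls and 57.6, 53.4 and 56.4% in the others, lowest in controls 1 and 2, as was the sum of the 11 squamous markers other than KRT8. Their part in the features' fold changes was not tested.

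Libraries also differed by base composition. The median deviation of a feature's log2 CPM from its mean over the 6 libraries, with 0.5 CPM added, was 0.27, 0.29 and -0.13 in controls and -0.26, 0.04 and -0.18 in the overexpression-labelled libraries. In control replicate 1 it ran from 0.07 in features with up to 40% G+C to 0.50 in those above 60%, and in control replicate 3 from -0.01 to -0.24. Spearman's rho between G+C and deviation across 1438 features was 0.36, -0.15 and -0.25 in controls and -0.09, -0.17 and 0.12 in the others, as a description. The part of base composition in the fold changes was not tested.

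**Figure D5:**
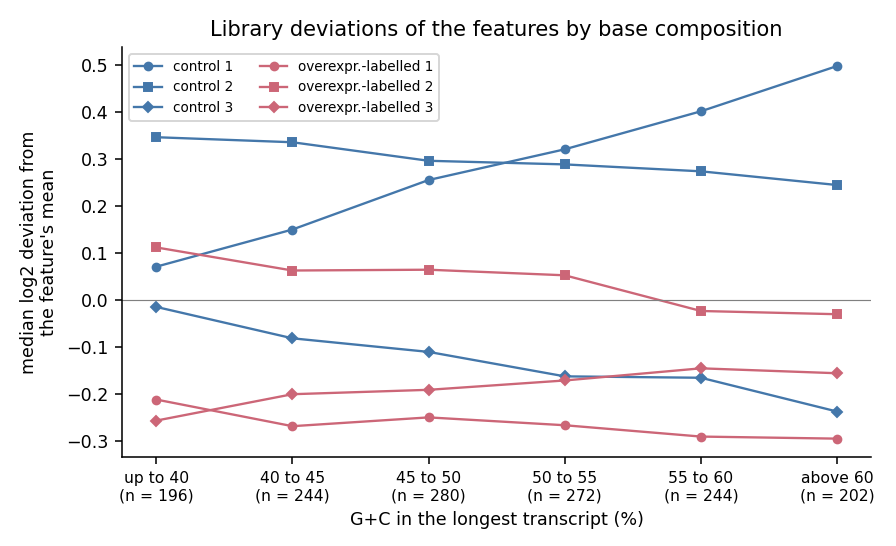
Median log2 deviation of the features from their own mean over the 6 libraries, by G+C percentage of the longest transcript, for each library; n is the number of features in a class. Control replicate 1 rises from 0.07 to 0.50 and control replicate 3 falls from -0.01 to -0.24.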

How the data were processed

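The authors deposited raw read counts per gene, with type, chromosome, start, end and strand, for 3 control and 3 overexpression-labelled libraries. Per the submitters' processing notes, Trim Galore 0.6.4, HISAT2 2.2.0 and HTSeq 0.13.5 were used with GRCh38 and hg38. Neither source states the annotation release or strand setting. Libraries were grouped by their titles.

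Features were taken by type, blank symbol and a total of at least 60 counts, and members and lists were chosen with earlier results of these data known. Named features are the 12 most counted and the 5 with the lowest p of each class, and up to 3 per role list of opposite genes (12 lists). Values of some features that this rule names are not reported here. Overlap was taken from the deposited starts and ends, and exons, sequences and G+C from GENCODE 29.

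The groups were compared with edgeR 4.0.16 in R 4.3.3 (filterByExpr, TMM, robust quasi-likelihood fit, glmQLFTest, Benjamini-Hochberg over all rows), and single values per library with exact permutation tests (SciPy 1.17.1). Alternatives were DESeq2 1.42.0, limma-voom (limma 3.58.1), other scalings, filters and thresholds, a replicate block, the gene-to-feature ratio as a covariate, and leaving out each library. On simulated data for this comparison 11800 genes were tested. Of 100 changes each, 17 of 2-fold and 78 of 4-fold were recovered, with 3 false calls. The simulated counts had a common dispersion and no shift shared by the features of a library, unlike the real libraries. Recovery in the real libraries may therefore differ. Libraries of a group were not repeats of each other: chi-square per degree of freedom was 3.63 to 13.5 and 0 pairs were identical.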

Additional observations from a re-analysis of the deposited data

How the results depend on the processing

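The count of 0 features called held under every alternative run except without control replicate 3, and ran from 0 to 199 when 1 library was left out. Features with a negative log2 fold change numbered 1169 to 1391 without 1 library and 789 with the gene-to-feature ratio as a covariate. That ratio is computed from the features' own counts, and so is the sum of feature and gene used as a scaling below. The feature held more counts than its gene in 1148 of 1437 pairs. Scaling to the sum therefore draws its fold change toward 0 by construction and is no test of it. The median of features opposite a gene was -0.056 when scaled to the sum of feature and gene and -0.0052 with the covariate, and -0.424 to -0.199 without 1 library. For features with no gene opposite it was -0.071 with library totals, 0.010 with the covariate, and -0.330 to -0.152 without 1 library. ENSG00000268739 moved from -1.77 to 0.020 when scaled to the sum of feature and gene. KLK10 has counts in 1 library only, so in the others this feature is scaled almost wholly to itself. Its value near 0 follows from that construction, and its sign is not read as a reversal. Differences in the share of counts ran from -3.95 to -1.95 percentage points and in the log2 ratio from 0.368 to 0.758 without 1 library. Features lower at an unadjusted p under 0.05 numbered 163, but 48 with library totals, 75 scaled to the sum, 18 with the covariate, and 36 to 541 without 1 library. Those higher numbered 3, but 8 with library totals, 9 scaled to the sum, 10 with the covariate, 5 with no filter on low counts, 0 with at least 10 counts in every library, and 1 to 5 without 1 library. Of 1437 features opposite a gene, 1178 had at least 50 exonic bases opposite in GENCODE 29 and 1081 at least 50% of their span. Deviations of same-numbered libraries had correlations of -0.25, 0.15 and -0.05, within the -0.29 to 0.35 of differently numbered ones. Whether same-numbered libraries were prepared together cannot be told from these values. The replicate block gave 0 calls, 1314 negative features and medians of -0.281 and -0.233. The cause of these changes was not tested. At 60 counts a feature has about 10 per library; recovery at that level was not tested apart.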
